A study of Mus musculus with 10 samples.

Results

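This comparison concerns POLR3GL, a subunit of RNA polymerase III (Pol III) that can take the place of its paralog POLR3G, at its binding sites in mouse embryonic stem (ES) cells and mouse embryonic fibroblasts (MEFs). The members are all peaks on the 19 autosomes in the 2 deposited POLR3GL peak lists, 231 in ES cells and 263 in MEFs. These 494 peaks are part of 507 POLR3GL peaks and of 46940 peaks in the 8 lists of the series. Peaks of the 2 lists that shared at least 1 bp were taken as 1 locus, which gave 272 loci, 222 of them present in both lists.

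Chromatin immunoprecipitation sequencing (ChIP-seq) was done with in-house antibodies to POLR3GL, POLR3C and POLR3G and a commercial antibody (N-20) to RNA polymerase II (Pol II). The ES cells were ES-E14TG2a, an established line grown on gelatin with LIF and serum. The MEFs were primary cells from E12.5 embryos, grown with serum and without LIF, and used after 3 to 5 passages. Both were fixed at 80% confluence. The labels name no genetic change and no treatment for either cell type, and do not state how many embryos gave the MEFs. Each antibody has 1 library in each cell type, so no difference below has a replicate check, no test was made, and cell type, culture and library cannot be told apart. The peak lists hold no expression values and no gene names, and the labelled cell types were not checked against markers.

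Pol III transcribes tRNA genes, the 5S rRNA genes and a few other short non-coding RNA genes. POLR3C belongs to a small subcomplex that Pol III needs for initiation, and this subcomplex carries either POLR3G or POLR3GL. POLR3GL is found in most tissues, whereas POLR3G is known for high levels in pluripotent stem cells. In the mouse many tRNA genes lie in groups, with a large one on chromosome 13. Positions below are on the mouse build mm9, and no gene was assigned to a position.

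Each peak carries 1 whole-number score from the authors, whose scale is not stated. On the autosomes the score ran from 15 to 60 with a median of 31 in ES cells, and from 15 to 100 with a median of 49 in MEFs. Because the scales may differ, each score was turned into a percentile within its own list, from 0 for the lowest to 100 for the highest. The rank move of a locus is its MEF percentile minus its ES percentile. Scores were tied often, and the commonest ES score was shared by 16 peaks, or 6.96 percentile points. Ranks are relative, so that sites lower in 1 list are balanced by sites higher elsewhere in it, and the 2 lists differ in length.

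The order of POLR3GL sites was similar in the 2 cell types, but not the same. Over the 222 paired loci the Spearman correlation of scores was 0.58. These points share 2 libraries and are not replicates. The median size of a rank move was 16.3 points, and 75 loci moved by less than 10 points. A move of 25 points or more was taken as large. It was found upwards, towards a higher MEF percentile, at 39 loci (17.6%) and downwards at 33 loci (14.9%). The last loci counted had moves of 25.6 and -25.2 points, and the first not counted had moves of 24.9 and -24.6 points. The centres of paired peaks were a median of 16 bp and at most 95 bp apart, and more than 50 bp apart at 53 of the 222 loci. Because pairing required overlap, this distance was limited by the peak widths.

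**Figure D1:**
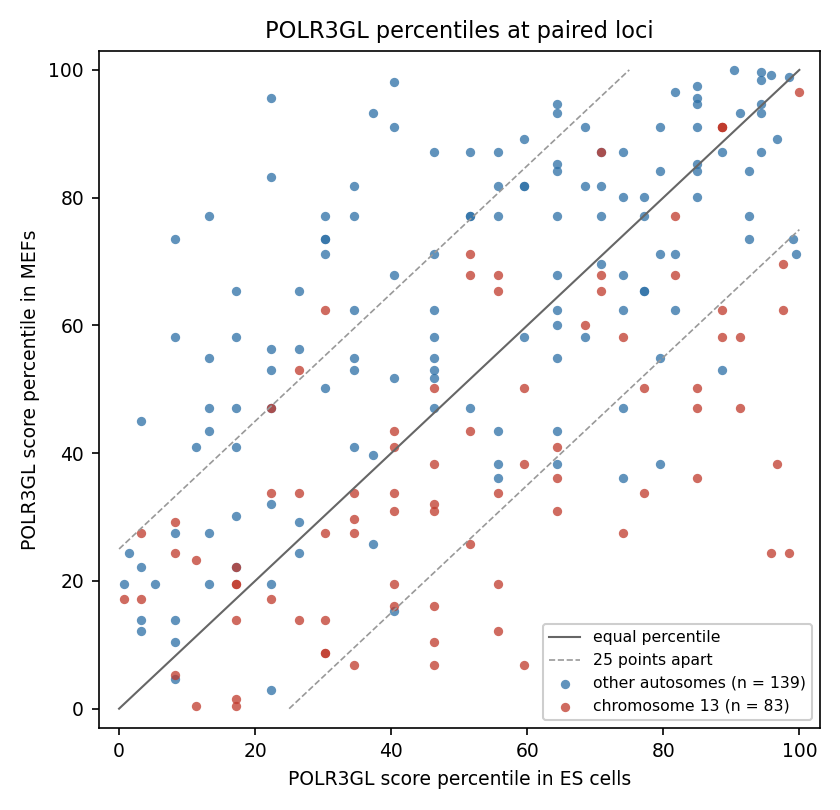
POLR3GL score percentile in ES cells (horizontal) and in MEFs (vertical), each 0 to 100, for the 222 paired loci, 1 point a locus. The solid line marks equal percentiles and the dashed lines a move of 25 points. Points of chromosome 13 (n = 83) lie mostly below the solid line, and those of the other autosomes (n = 139) mostly above it.

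The 5 highest-scored paired loci of MEFs also ranked high in ES cells, with ES percentiles between 90.4 and 98.5. The first of them, chr7:127978950-127979101, scored 100 in MEFs and 44 in ES cells, or percentiles of 100 and 90.4. The locus chr11:106874141-106874326 scored 86 in MEFs and 49 in ES cells, at percentiles of 99.2 and 95.9, and led the POLR3C lists of both cell types. The others were chr14:51709131-51709288 (scores 48 in ES cells and 91 in MEFs) and chr3:96304876-96305084 (48 and 80). At chr3:90279767-90279927 the scores were 53 in ES cells and 81 in MEFs, and the percentiles were 98.5 and 98.9. The highest-scored autosomal site of ES cells, chr13:23558911-23559058 with a score of 60, was at percentile 96.6 in MEFs. The other 3 of the 5 highest-scored ES sites ranked lower in MEFs. They were chr6:86353809-86353966 at percentile 71.2, chr11:48670063-48670220 at 73.5 and chr13:23492599-23492817 at 24.4.

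Chromosome 13 was lower in rank in MEFs than in ES cells, and most other chromosomes were higher. Loci at most 200 kb from the next were joined into neighbourhoods, called clusters where they held 8 or more loci, and all 83 paired loci of chromosome 13 lay in 3 clusters. Their median percentile was 46.3 in ES cells and 33.8 in MEFs, with a median move of -9.52 points and 58 of the 83 (69.9%) lower in MEFs. The 139 loci on other autosomes had median percentiles of 55.7 and 67.9, a median move of 9.67 points, and 42 (30.2%) lower in MEFs. Of the 33 large downward moves, 25 were on chromosome 13, which is 30.1% of its loci, against 8 (5.76%) elsewhere. Of the 39 large upward moves, 2 were on chromosome 13 (2.41%) and 37 elsewhere (26.6%).

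The gap between chromosome 13 and the rest was seen at every starting rank in ES cells. Among loci below the 25th ES percentile, the median move was 4.96 points on chromosome 13 (n = 17) and 23.4 points elsewhere (n = 34). From the 25th to the 50th it was -9.52 (n = 25) against 20.4 points (n = 31). From the 50th to the 75th it was -15.9 (n = 21) against 8.62 points (n = 38). At or above the 75th it was -31.8 (n = 20) against -0.93 points (n = 36). Within chromosome 13 alone the scores of the 2 cell types were correlated with rho = 0.63, and on the other autosomes with rho = 0.64. When both lists were ranked anew without chromosome 13, the median move of the other autosomes was 4.25 points, with 25 large upward and 14 large downward moves in place of 37 and 8.

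**Figure D2:**
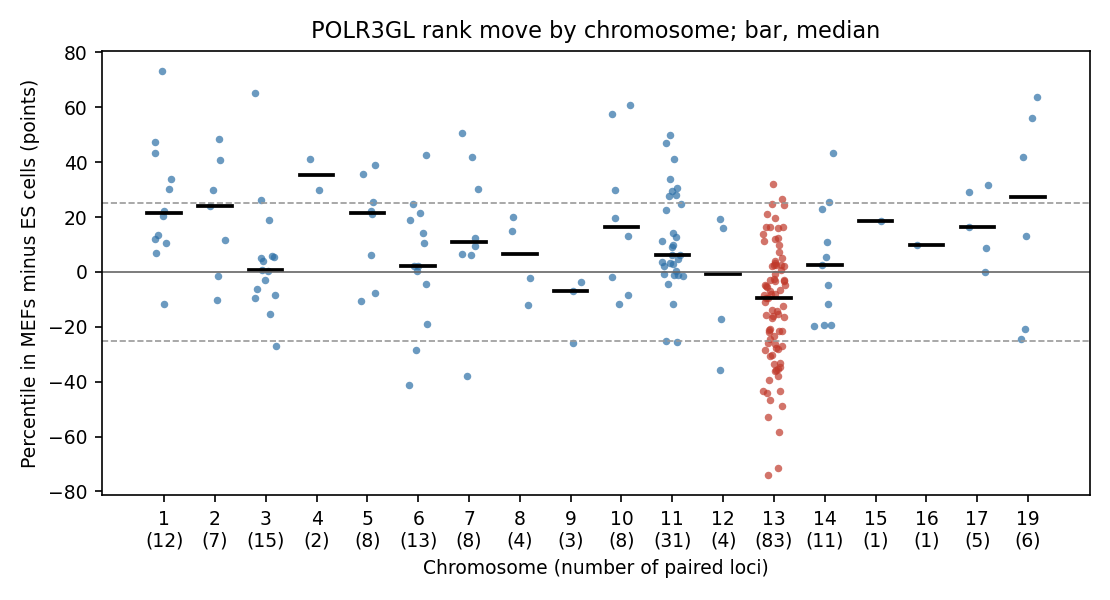
Rank move of POLR3GL (percentile in MEFs minus percentile in ES cells, in points) at each paired locus, by chromosome, with the number of loci in brackets. Black bars are medians and dashed lines mark 25 points. Of the 12 chromosomes with 5 or more paired loci, chromosome 13 has the only median below 0, at -9.52 points. The ranks include chromosome 13, and medians of single chromosomes were not taken anew without it.

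Among the 12 chromosomes with at least 5 paired loci, 11 had a median move above 0. These ranks include chromosome 13. Without it the median of all other autosomes together fell from 9.67 to 4.25 points. Medians of single chromosomes were not taken anew in this way, so the sign of those near 0 is not settled. The medians were 27.3 points on chromosome 19 (n = 6), 23.9 on chromosome 2 (n = 7), 21.6 on chromosome 5 (n = 8) and 21.4 on chromosome 1 (n = 12). On chromosome 1, 11 of 12 loci were higher in MEFs. Medians were near 0 on chromosomes 3 (0.83, n = 15), 6 (2.30, n = 13) and 14 (2.68, n = 11). Chromosome 11, with 31 paired loci the second in number, had a median of 6.03 points and 23 loci higher in MEFs. All 3 loci of chromosome 9 were lower in MEFs, with moves from -26.0 to -3.68 points.

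Of the 10 largest downward moves, 6 lay in the third cluster of chromosome 13, which holds 36 loci from 23377430 to 23622363, 3 in the second and 1 on chromosome 6. The site chr13:23492599-23492817 scored 53 in ES cells, at percentile 98.5, and 33 in MEFs, at percentile 24.4, a move of -74.1 points. Its neighbour chr13:23504722-23504961 scored 49 and 33, with a move of -71.4 points. At both, the peaks of the 2 lists overlapped only in part, with centres 74 and 95 bp apart. At chr13:23524827-23524974 the centres were 1 bp apart, the scores were 50 and 43, and the move was -58.4 points.

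Next to one another, chr13:23591870-23592075, chr13:23592352-23592531 and chr13:23592760-23592979 had moves of -43.4, -46.6 and -43.4 points. They belong to a run of 9 consecutive paired loci, from 23558911 to 23609639, that were all lower in MEFs. Of the 33 paired loci in this cluster, 22 were lower in MEFs, 14 of them by 25 points or more. The cluster was not uniform, since 11 were higher in MEFs. Its first 4 loci, from 23377430 to 23399627, had moves from 2.29 to 13.9 points, and chr13:23545267-23545448 scored 26 in ES cells and 56 in MEFs with a move of 32.2 points.

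The other clusters of chromosome 13 showed the same direction with smaller medians. The first, with 23 loci from 21252655 to 21418704, had a median move of -12.6 points. Its loci separated by position. Of the 10 paired loci before 21314380, 7 were higher in MEFs and their median move was 2.31 points. All 13 from there to the end were lower in MEFs, with moves from -39.4 at chr13:21334386-21334583 to -2.74 points. The second cluster, from 21802407 to 22142702, held 27 paired loci with a median of -7.08 points, 20 of them lower in MEFs. A run of 10 lower loci extended from 21947112 to 22009152 and ended with chr13:22008966-22009152, which scored 33 in ES cells and 22 in MEFs and moved by -52.7 points. Within the run, chr13:21974706-21974873 (scores 46 and 48) moved by -44.2 points, and beyond it chr13:22107584-22107731 (41 and 42) by -48.9 points. These runs were picked out after the values were seen.

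**Figure D3:**
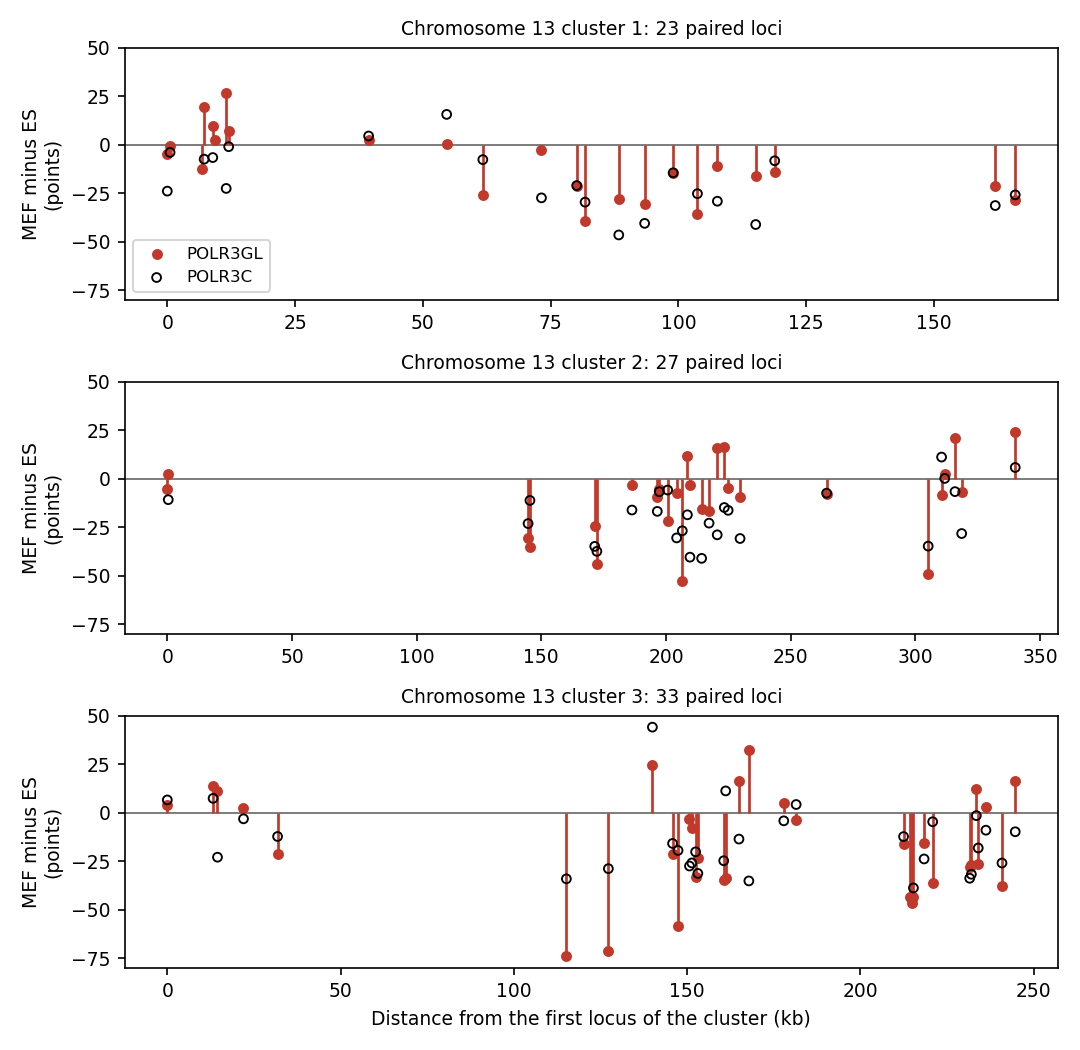
Rank moves (percentile in MEFs minus ES cells, in points) along the 3 clusters of chromosome 13, in order of position, against the distance from the first locus of the cluster in kb. Filled points with stems are POLR3GL and open circles POLR3C at the same loci. In the first cluster the 13 loci farthest from its start are all below 0 for POLR3GL.

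The clusters outside chromosome 13 differed among themselves. In the 4 clusters of 8 or more loci on chromosomes 1, 3, 6 and 11 the 34 paired loci had a median move of 4.90 points, with 10 lower in MEFs. The medians were 22.3 points on chromosome 1 (n = 7), 14.2 on chromosome 6 (n = 7), 3.29 on chromosome 11 (n = 14) and -4.56 on chromosome 3, where 4 of 6 loci were lower. Over all 117 clustered loci the median was -4.38 points, so the sign of the clustered class was that of chromosome 13. Loci in groups of 2 to 7 had a median move of 10.6 points (n = 64), and solitary loci, with no other POLR3GL locus within 200 kb, 12.52 points (n = 41). Neighbouring paired loci of 1 neighbourhood differed in their move by a median of 16.6 points (153 pairs of neighbours), against 23.9 points between any 2 paired loci and 21.9 points between any 2 of chromosome 13. For the 71 pairs of neighbours at most 2000 bp apart the median difference was 19.3 points.

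The largest upward move was in the cluster of chromosome 1 from 172963991 to 173041638. The site chr1:173033097-173033302 scored 24 in ES cells, at percentile 22.4, and 74 in MEFs, at percentile 95.6, a move of 73.2 points. The first 6 of the 7 paired loci of this cluster were all higher in MEFs, and the last, chr1:173041491-173041638, moved by -11.7 points. The cluster also held 2 loci of MEFs alone. POLR3G was called in MEFs at all 7 of its paired loci, against 156 of all 222 paired loci (70.3%). These 7 loci scored 51 to 74 in MEFs, above the list median of 49, so this contrast was not matched for MEF rank. Pol II was called at none of the 7, against 34.7% of all paired loci in ES cells and 30.6% in MEFs. In the cluster of chromosome 11 from 68850440 to 68938832, the first 7 paired loci were higher in MEFs, with a largest move of 41.0 points at chr11:68853811-68853964. In the cluster of chromosome 3 from 96136591 to 96305505 the 6 paired loci stayed within -15.5 and 5.67 points, while 5 further loci were unpaired.

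The 39 large upward moves, 17.6% of all paired loci, lay on 13 chromosomes. They were at 9 of 117 clustered loci (7.69%), 17 of 64 in smaller groups (26.6%) and 13 of 41 solitary loci (31.7%). Without chromosome 13 they were at 7 of 34 clustered loci (20.6%). The site chr3:19528280-19528481 scored 20 in ES cells and 61 in MEFs and moved by 65.2 points. The next site along, chr3:19528909-19529062, moved by -27.0 points, so these adjacent sites exchanged their order. A single MEF Pol II peak overlapped both, and no ES Pol II peak did. The solitary sites chr19:3576253-3576408 (scores 22 and 62) and chr10:127895454-127895607 (24 and 66) moved by 63.8 and 60.8 points. The site chr10:79711830-79711977 scored 29 and 78 and moved by 57.7 points, to percentile 98.1 in MEFs. In a group of 7 loci on chromosome 19, chr19:12085531-12085678 (28 and 72) moved by 55.9 points, and the next, chr19:12086042-12086189, by -24.6 points. The other paired loci of this group, chr19:12080437-12080593 and chr19:12084105-12084287, moved by 41.7 and -20.8 points, while POLR3C was higher in MEFs at all 4. The remaining sites among the 10 largest upward moves were chr7:65654663-65654832 at 50.6, chr11:115274235-115274445 at 49.9, chr2:122203730-122203881 at 48.3 and chr1:34491606-34491796 at 47.3 points. POLR3G was called in MEFs at each of the 10, against 112 of all 139 paired loci on autosomes other than 13 (80.6%). All 10 were at POLR3GL percentile 58.2 or higher in MEFs. Over all paired loci the median MEF percentile was 66.7 with a POLR3G call and 22.1 without. The 10 were thus not compared with loci of similar MEF rank, and no conclusion is drawn from their share.

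Outside chromosome 13 the largest downward moves were at chr6:47738101-47738259 (scores 39 and 43, -41.2 points), at chr7:19886549-19886699 (37 and 42, -38.1 points) and at chr12:72070076-72070260 (43 and 51, -35.6 points). The site chr6:86353809-86353966 ranked second in ES cells with a score of 56 and was at percentile 71.2 in MEFs.

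POLR3C, the subunit of the same subcomplex, was measured in other libraries and gives a second view of each locus. At 201 of the 222 loci POLR3C was called in both cell types. With these 201 loci ranked among themselves in each list, POLR3GL ranks of ES cells and MEFs differed by a median of 15.8 points (rho = 0.58) and POLR3C ranks by 18.2 points (rho = 0.57). The ranks of the 2 antibodies within 1 cell type were closer. They differed by a median of 9.50 points in ES cells (rho = 0.82) and 8.50 points in MEFs (rho = 0.81). A gap of 25 points or more was present at 68 loci for POLR3GL and 73 for POLR3C between cell types, and at 29 and 32 loci between the antibodies within ES cells and within MEFs. With percentiles of the whole lists, as used for the large moves above, the medians lay nearer to each other. They were then 16.3 points for POLR3GL and 16.5 for POLR3C between cell types, against 13.9 between antibodies in ES cells and 10.4 in MEFs. Differences of 25 points or more then numbered 65 for POLR3GL and 59 for POLR3C between cell types. Between the antibodies they numbered 53 for the ES lists and 19 for the MEF lists. On this scale the ES count was thus near those between cell types. All of these describe single libraries.

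The moves of POLR3GL and POLR3C were mostly in the same direction. The correlation of their rank moves over the 201 loci was rho = 0.58, with 0.47 within chromosome 13 and 0.51 outside it. The direction was the same at 135 of 200 loci (67.5%). Among all 245 paired autosomal POLR3C loci, 9.8% were at least 25 points higher in MEFs and 18.4% at least 25 points lower. Over the 201 loci POLR3C was lower in MEFs at 132 and higher at 68. At loci with a large upward POLR3GL move, POLR3C was higher in MEFs at 28 of 35 and by 25 points or more at 13. At those with a large downward move it was lower at 27 of 30, and by 25 points or more at 17. The site chr13:23492599-23492817 was at POLR3C percentile 71.8 in ES cells and 37.7 in MEFs, a move of -34.0 points. The site chr3:19528280-19528481 was at 33.1 and 94.5, a move of 61.4 points.

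On chromosome 13 POLR3C was lower in MEFs at 68 of 78 loci, with a median move of -19.0 points. On the other autosomes it was lower at 64 of 123, with a median of -1.48 points, which was 3.00 points when only the 201 loci were ranked, against -14.4 points on chromosome 13. In the first cluster of chromosome 13 all 13 loci of the run described above were lower for POLR3C too. POLR3C was lower at 19 of the 21 loci measured in this cluster, however. These include 4 of 6 in the stretch before the run where POLR3GL was higher, so the direction of POLR3C did not mark off the run. Not every locus followed. At chr7:19886549-19886699 POLR3C moved by 33.4 points while POLR3GL moved by -38.1 points. The reverse held at chr13:23545267-23545448, with -35.1 points for POLR3C. In the cluster of chromosome 6 from 128710064 to 128793376, POLR3GL was higher in MEFs at 6 of 7 loci, with a median of 14.2 points, while POLR3C was lower at all 7, with a median of -25.6 points.

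**Figure D4:**
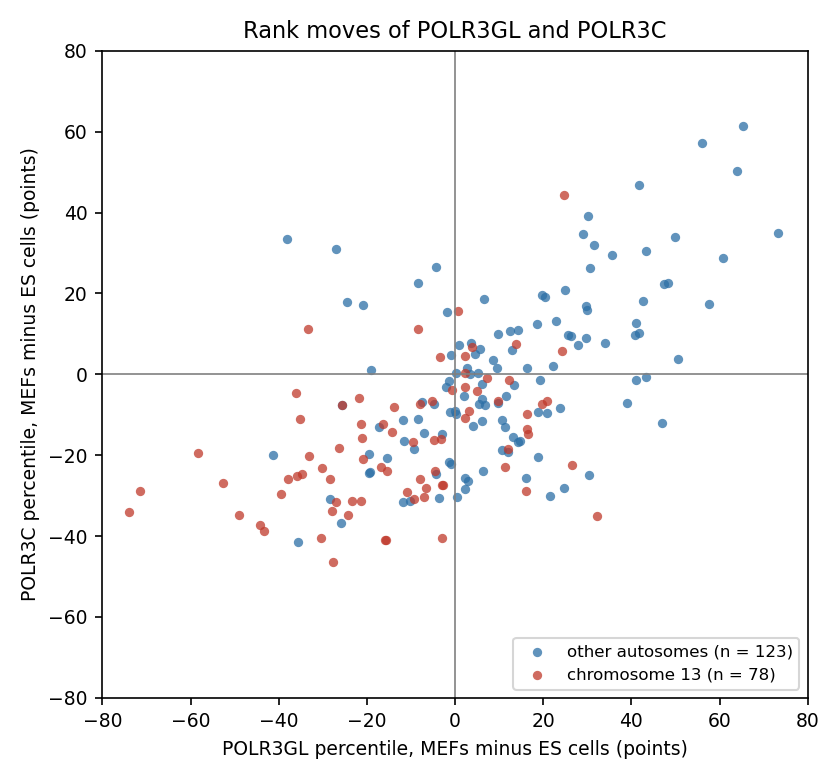
Rank move of POLR3GL (horizontal) and of POLR3C (vertical), each percentile in MEFs minus ES cells in points, at the 201 loci found in all 4 lists. Of the chromosome 13 loci (n = 78), 68 lie below 0 for POLR3C. Across all points rho is 0.58.

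Pol II transcribes protein-coding genes, and its peaks lie near many Pol III sites. On the autosomes other than 13, 24 of the 37 loci with a large upward move (64.9%) overlapped a MEF Pol II peak, against 34 of the 94 with a smaller move (36.2%), 4 of the 8 with a large downward move (50.0%) and 44.6% of all 139. The median POLR3GL percentiles in MEFs were 73.5, 63.9 and 42.7 in these 3 classes. For ES Pol II the counts were 19 (51.4%), 41 (43.6%) and 5 (62.5%), against 46.8% of all 139. Loci with Pol II in MEFs alone had a median move of 18.8 points (n = 19), those with Pol II in both cell types 12.8 (n = 43), those with Pol II in ES cells alone 9.78 (n = 22) and those with neither 6.02 (n = 55). The ranges of these 4 classes overlapped widely, from -27.0 to 65.2 points in the first and from -26.0 to 73.2 points in the last. Chromosome 13 had few Pol II peaks, at 12 of its 83 paired loci in ES cells and 6 in MEFs. The share with Pol II depends on the Pol II list. With only Pol II peaks at or above the median score, 30.8% of all 39 large upward moves, chromosome 13 included, had MEF Pol II in place of 61.5%. Over all 222 paired loci the share was then 16.7% in place of 30.6%, so it fell in both sets.

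An ES POLR3G peak overlapped only 1 of the 272 loci, an unpaired one, so POLR3G was compared in MEFs alone. POLR3G in MEFs was called at 156 of the 222 paired loci (70.3%). It was called at 36 of the 39 loci with a large upward move (92.3%) and at 18 of the 33 with a large downward one (54.5%). Of these 33, 25 were on chromosome 13, where POLR3G was called less often. There it was called at 12 of the 25 and at 32 of the 58 other loci. On the other autosomes the counts were 34 of 37 upward, 72 of 94 with a smaller move and 6 of 8 downward. The low downward share was thus mostly that of chromosome 13. The median MEF percentile of POLR3GL was 66.7 at loci with POLR3G and 22.1 at those without, and the median ES percentile was 64.3 and 26.5, so the call went with the POLR3GL rank of both cell types. On chromosome 13 POLR3G was called at 44 of 83 loci (53.0%), and the median move was -7.98 points at these and -15.4 points at the other 39. Elsewhere the medians were 10.1 points with POLR3G (n = 112) and 8.95 points without (n = 27). Both chromosome groups thus kept their direction with and without POLR3G.

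Peaks without a partner were few and mostly of low rank. In ES cells 222 of 231 peaks were paired (96.1%, exact Clopper-Pearson 95% interval 92.7 to 98.2%), and in MEFs 222 of 263 (84.4%, 79.5 to 88.6%). These intervals cover counting error over peaks only. By score, 64.2% of MEF peaks below the 25th percentile had a partner, then 87.1%, 94.0% and 92.5% in the following steps of 25 points. In ES cells the shares were 87.9%, 98.2%, 98.3% and 100%, the last of 56 peaks.

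**Figure D5:**
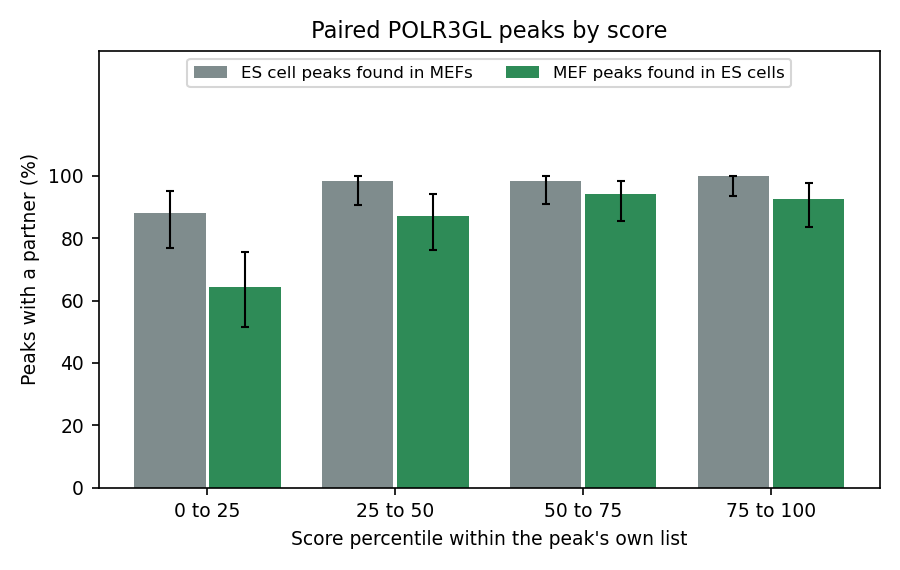
Share of POLR3GL peaks with a partner in the other cell type (in %), by score percentile within the peak's own list, for ES cells (grey) and MEFs (green). Error bars are exact 95% intervals of counting error over peaks. The lowest bar, 64.2%, is that of MEF peaks below the 25th percentile.

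Of the 41 loci of MEFs alone, 32 were below the 50th percentile of the MEF list and 9 at or above it. POLR3C was called in ES cells at 23 of the 41 and within 500 bp at 31, so most had a POLR3C call in ES cells at or beside them. ES POLR3C ranked low at these 23, with a median percentile of 23.7, against 65.5 at the paired loci. The highest-scored locus of MEFs alone, chr18:36961516-36961663, scored 77 for POLR3GL, at percentile 97.5. POLR3C was called there in both cell types, at percentile 37.7 in ES cells and 98.9 in MEFs. At chr9:123438466-123438613 POLR3GL scored 61 in MEFs, and POLR3C was at percentile 25.8 in ES cells and 77.7 in MEFs.

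Other unpaired sites were near neighbours. A POLR3GL peak of ES cells lay within 500 bp of 9 of the 41. The ES peak chr7:105963935-105964076 (score 30) and the MEF peak chr7:105964170-105964317 (score 62) were 93 bp apart, and 1 POLR3C peak in each cell type overlapped both. The MEF peak chr2:57034747-57034894, with a score of 71, lay 102 bp from an ES peak. The MEF peak chr13:22032705-22032852, with a score of 62, lay 432 bp from an ES peak.

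Of the 41, 10 had neither a POLR3GL nor a POLR3C peak of ES cells within 500 bp. The highest-scored of these was chr1:172975048-172975195, with scores of 75 for POLR3GL, 262 for POLR3C and 35 for POLR3G in MEFs. It was at MEF percentile 96.6, and the other 9 scored 16 to 22, at percentiles of 6.87 or less. A pair of them, chr8:113154415-113154562 and chr8:113155154-113155301, were neighbours with POLR3C in MEFs and in the same MEF Pol II peak, and another, chr18:35025154-35025301, had no POLR3C in either cell type.

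The 9 loci of ES cells alone scored 15 to 34, and 8 were below the 50th ES percentile. The exception, chr3:96136591-96136732, scored 34, and POLR3C there was at percentile 70.2 in ES cells and 12.8 in MEFs. POLR3C was called in MEFs at 4 of the 9. The locus chr13:22028884-22029025 scored 24, and POLR3C was at percentiles 38.7 and 15.9. The others of the 5 highest-scored were chr7:105963935-105964076, described above, and the tied chr4:145029784-145029925 and chr13:4560531-4560672. At 4 of the 9 no POLR3C peak was called in either cell type. They include these tied sites, both with a POLR3GL score of 20. The other sites without POLR3C were chr4:145740342-145740483 (score 15) and chr19:12086673-12086814 (score 19), which lay 180 bp from a MEF POLR3GL peak. An ES POLR3G peak with a score of 18 overlapped chr13:4560531-4560672, the only 1 of the 272 loci with such an overlap.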

How the data were processed

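Peak lists of 8 libraries were used, and the 2 input libraries were not analysed here. CASAVA 1.8, Bowtie 1.12, SAMtools and HOMER, and the build mm9, are named in the submitters' processing notes. Pol II peak names in the files carry the word MACS. Nothing on calling thresholds, the control, pooling or read depth was given in the sources used here. The deposited scores are the authors' own, 1 a peak, with no stated unit, and were used only to rank peaks within a list.

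Starts were read as 0-based and printed 1-based. Percentiles used average ranks for ties. Loci at most 200 kb apart formed neighbourhoods, and 8 or more loci a cluster. Overlap meant at least 1 bp. The named loci were the 10 largest moves each way, the 5 highest-scored paired and unpaired loci of each list and the largest move of each cluster; others named were picked after their values were seen. Members and settings were chosen with earlier results of these data known. The gene and promoter tables at hand are for GRCm38, so no gene or sequence was attached. Pairing and ranking were tested on simulated data. Python 3.11.15, numpy 2.4.6, pandas 2.3.3, scipy 1.17.1 and matplotlib 3.10.9 were used.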

Additional observations from a re-analysis of the deposited data

Results flagged for a closer look

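Of the ES cell POLR3GL peaks, 12 lay on chromosomes X and Y and were left out of the autosomal comparison. The 7 on chromosome X scored 16 to 45 and the 5 on chromosome Y 22 to 99, and 99 is above every autosomal score of that list. They are given here because they are a signal in data that the comparison does not use. The MEF list held 1 such peak, on chromosome X with a score of 43, and its ES partner scored 20. None of the other 11 ES peaks overlapped an ES POLR3C peak.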

How the results depend on the processing

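The paired loci numbered 170 to 223 with a 50% overlap, peaks widened by 500 bp (which merges neighbours) or all chromosomes, and 88 among peaks at or above the median scores. Large upward moves numbered 21 with centred log2 scores (0.5 or more), 65 at 15 points and 19 at 40 points, against 39. Large downward moves numbered 53 at 15 points and 10 at 40 points, against 33. With ranks taken without chromosome 13, the other autosomes had 25 upward and 14 downward, against 37 and 8 there before. With both scores shifted by 1 unit towards a smaller move, 27 and 23 large moves were left. The median move of clusters was 4.90 without chromosome 13, and that of other autosomes was 4.25 with ranks taken without it. On chromosome 13 the median move was -13.6 among paired loci only and -8.19 where centres were at most 50 bp apart. ES Pol II was found at 43.7% of paired loci within 1 kb and 22.1% with higher-scored Pol II peaks, and MEF Pol II at 38.3% and 16.7%. With higher-scored Pol II peaks, 30.8% of large upward moves had ES Pol II, and the same share MEF Pol II. Of all alternative values, 16 fell outside 1.5 times a count, 0.1 of a correlation or the 95% counting interval of a median or share. The other 58 values stayed inside. Among these, large upward moves numbered 26 with widened peaks, the POLR3C median of other autosomes turned from -1.48 to 3.00 among loci of all 4 lists, and MEF Pol II at large downward moves was 24.2% within 1 kb against 15.2%. The alternatives with ranks taken anew without chromosome 13, shifted scores or close centres were chosen after seeing the data. No paired analysis was possible because each group has 1 library. Depth is unknown, so a missing peak does not show absence.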
